A study of Homo sapiens with 6 samples.

Results

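The proteasome genes were taken from the deposited table as the rows with a symbol of PSMA to PSMG plus a number, or POMP, and with a protein-coding transcript type. This gave 51 of 60612 genes, of which 19 were core genes (PSMA and PSMB), 21 were cap genes (PSMC and PSMD) and 11 were others (POMP, PSME, PSMF and PSMG). The symbol pattern also took in PSMC3IP, a recombination factor, and PSME3IP1, a protein that binds PSME3, which are not proteasome subunits. It also met 35 pseudogene rows and 5 other noncoding rows, which were left out. RNA came from HCT116, an established line from a human colorectal cancer, with si NC, a control siRNA, in 3 samples and PLOD3 siRNA in the other 3. PLOD3 encodes an enzyme that modifies lysines of collagen. Each treatment lasted 2 days, and all 6 samples came from the same line grown in DMEM with serum, with no genetic change in the labels. The labels name 1 cell line, name no siRNA sequence, and leave unsaid whether a group's 3 samples were grown apart, so all p-values rest on a spread between samples that may be only technical.

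The proteasome is the large protease that breaks down proteins tagged with ubiquitin in the cytosol and nucleus. Its core is a barrel of stacked rings, the outer rings made of alpha subunits and the inner rings of beta subunits, some of which cut protein chains. The cap binds ubiquitin, removes it, and uses a ring of ATPases to unfold the substrate and feed it into the core. Dedicated chaperones help to assemble each part, and dividing tumour cells such as those of colorectal cancer are known to hold abundant proteasomes.

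Total estimated counts per sample ran from 55416555 to 76802428. PLOD3 stood at 6.40, 7.16 and 6.22 FPKM (fragment counts normalized by transcript length and library size) with si NC, against 3.44, 3.40 and 4.05 with PLOD3 siRNA, so the groups did not overlap (log2 fold change -0.85, SE 0.107, edgeR adjusted p = 0.0035). Of 8 epithelial and colorectal markers, 7 had a mean of at least 1 FPKM, with EPCAM at 90.8 to 105 FPKM over all samples, and VIL1 was at or near 0. The epithelial list summed to 699 to 745 FPKM in si NC and 576 to 654 in PLOD3 siRNA, and of its 7 tested genes 3 were called lower (KRT18 at -0.46, CDH1 at -0.76 and KRT19 at -0.23) and 0 higher. Their part in the results on the proteasome was not tested. The leukocyte markers PTPRC, CD3E, CD3D and MS4A1 were at 0 in every sample, and the 10 leukocyte markers summed to 1.12 to 2.13 FPKM in si NC and 1.72 to 1.98 in PLOD3 siRNA. Among them CD68 stood at 1.26, 0.653 and 0.507 FPKM with si NC, against 1.57, 1.57 and 1.51 with PLOD3 siRNA. Its log2 difference of 0.96 missed the threshold (edgeR adjusted p = 0.0614). The 9 fibroblast markers summed to 2.66 to 2.89 and 1.52 to 1.93 FPKM, with DCN, LUM and FAP at 0, and the 7 endothelial markers to 0.11 to 0.322 and 0.162 to 0.169 FPKM. Most of the fibroblast sum was COL1A1, at 2.35 ± 0.116 FPKM in si NC and 1.65 ± 0.239 in PLOD3 siRNA (SD, n = 3 each). COL1A1 was called lower (log2 -0.50, edgeR adjusted p = 0.0158). In bulk RNA, fewer cells of a kind and less RNA per cell cannot be told apart.

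Most proteasome genes were higher after PLOD3 siRNA. Of the 47 members with a mean of at least 1 FPKM, which were tested, 32 rose and 1, PSME1, fell. This is 68.1% of the tested members called higher, where 16.2% of all 12000 genes tested were called higher and 19.3% lower (edgeR's quasi-likelihood test, adjusted p under 0.05). The median log2 fold change was 0.48 over the 47 members and 0.003 over all genes tested, whose lower and upper quartiles were -0.32 and 0.29. The rise was shared by the core (11 of 16 tested members, median 0.52) and the cap (18 of 21, median 0.48), while among the other members 3 of 10 rose (median -0.02). In 36 members every PLOD3 siRNA sample was above every si NC sample, against 24.6% of all genes tested, and in 5 every one was below, against 27.5%. Without PSMC3IP and PSME3IP1 the counts were 31 of 45 higher and 1 lower.

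The number of members called higher was 24 to 36 in the 18 alternative analyses, but for the core alone it fell from 11 to 7 without si NC replicate 1. The share of all genes tested that was called higher also varied. It was 4.49% of the 32482 genes tested without a filter, and 8.77% to 20.6% in the other alternatives. With a correction for both the GC content and the length of the transcript the median of the members was 0.29, and with FPKM rescaled to TPM (the same total in each sample, tested with limma) the share of higher genes among all calls was 62.8% in place of 45.6%.

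**Figure D1:**
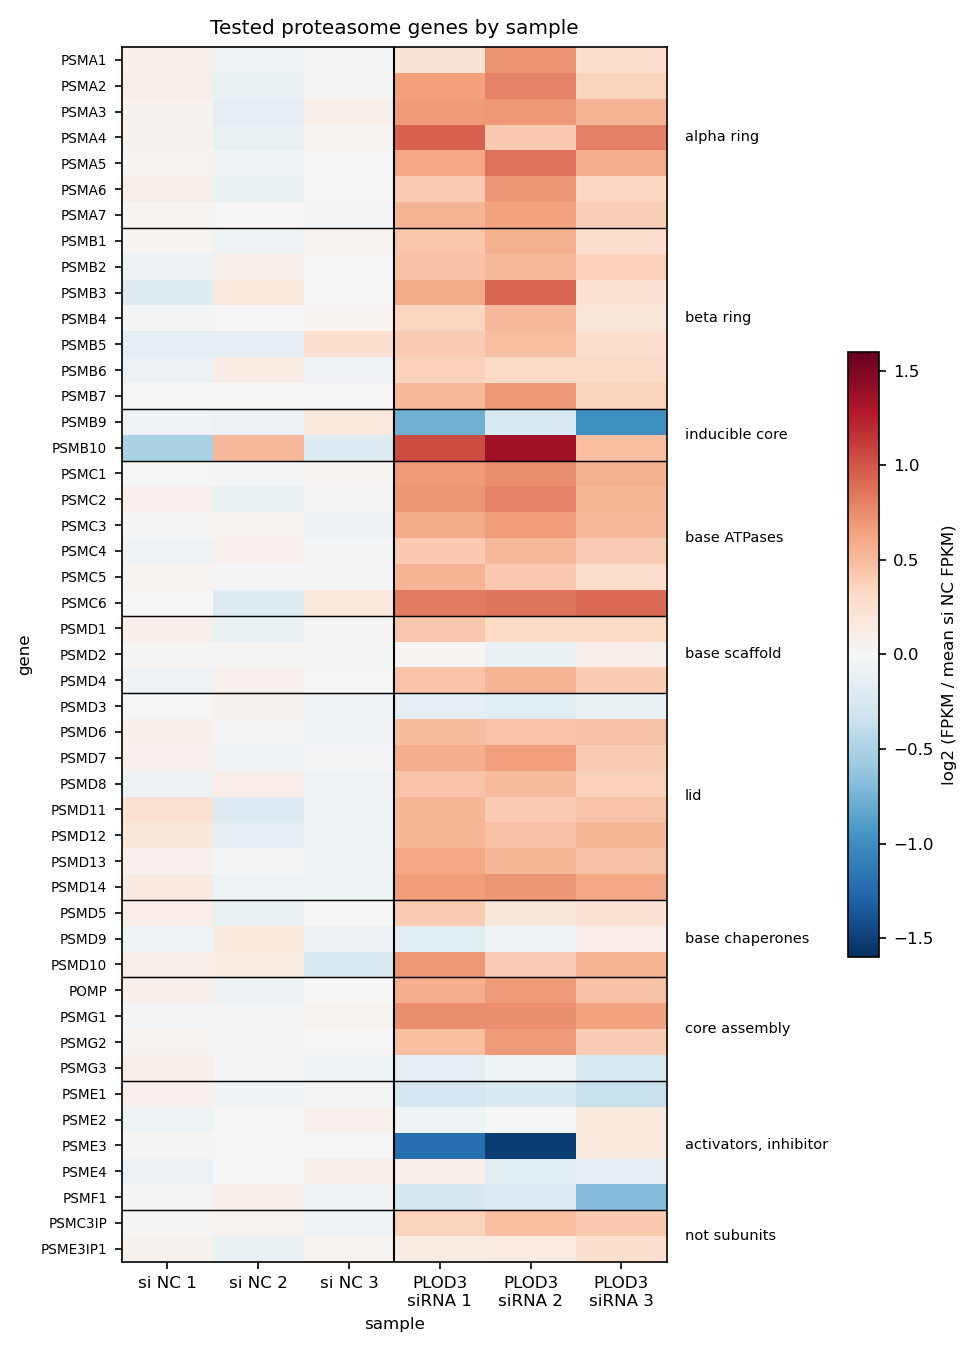
Log2 of each sample's FPKM over the si NC mean for the 47 tested proteasome genes (rows, grouped by role) in the 6 samples (columns). The alpha ring, beta ring, ATPase and lid rows are higher in all 3 PLOD3 siRNA columns except PSMD3, and PSME3 is low in PLOD3 siRNA replicates 1 and 2 only.

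Summed over the 14 constitutive core subunits, the level was 802, 825 and 844 FPKM for si NC replicates 1 to 3, against 1157, 1282 and 1030 for PLOD3 siRNA replicates 1 to 3. The ratio of the means was 1.4. Summed over the 17 cap subunits it was 604, 594 and 581 FPKM with si NC, against 807, 812 and 768 with PLOD3 siRNA, a ratio of 1.34. The groups did not overlap in either sum. PLOD3 siRNA replicate 2 held the highest of its group's values for 12 of the 14 core subunits and replicate 3 the lowest for 12. In the cap the order was less uniform, with replicate 2 highest for 8 of 17 subunits and lowest for 6.

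Levels in FPKM differed widely between subunits that are known to be present in equal numbers in the particle. The deposited FPKM did not follow the estimated counts over transcript length. PSMA6, with 6909 to 10873 counts and a longest coding transcript of 1029 bases, had a si NC mean of 14.9 FPKM. PSMB6, with 5998 to 10427 counts and 871 bases, had 66.1. How FPKM was made for a gene was not given, so differences between subunits may depend on it. In si NC the highest mean FPKM was that of PSMB3 at 121 ± 14.3 (SD, n = 3) and the lowest that of the ATPase PSMC6 at 6.26 ± 0.780, a ratio of 19.3. The order of the 31 core and cap subunits was nearly the same in PLOD3 siRNA (Spearman's rho 0.987 across genes, which are not independent replicates, as a description). Among the neighbours in that order, PSMA7 (102 ± 2.2 FPKM) and PSMB7 (95.9 ± 0.623) did not overlap in si NC, while PSMB5 (91.7 ± 16.0) reached 110 in replicate 3 and was not separated from either beyond its spread. The median of the beta ring subunits was 90.7 FPKM in si NC and that of the alpha ring subunits 20.8, although the alpha gene PSMA7 stood above every beta gene but PSMB3.

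**Figure D2:**
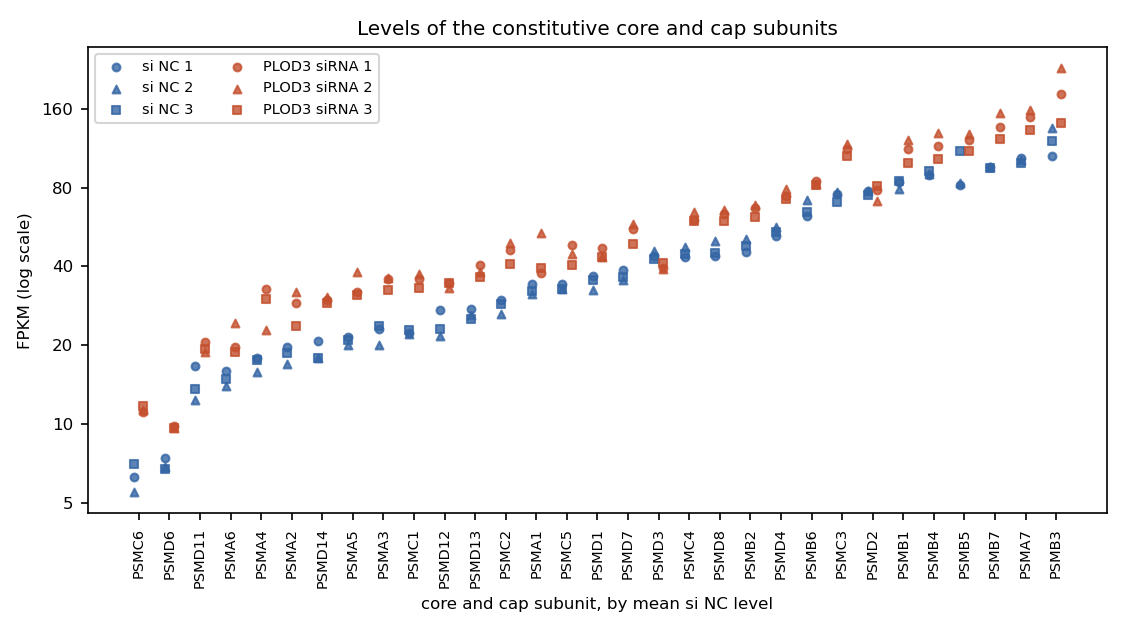
FPKM (log axis) of the 31 constitutive core and cap subunits in each sample, ordered by their si NC mean, with si NC in blue and PLOD3 siRNA in red. Levels run from PSMC6 at 6.26 FPKM to PSMB3 at 121 in si NC, and the red points lie above the blue ones for all subunits but PSMD2 and PSMD3.

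The sequence upstream of the genes was examined because so many members moved together. Of the 51 members, 45 matched a RefSeq promoter entry by symbol (GRCh38.p14), and PSMA7, PSMB1, PSMB6, PSMB7, PSMD4 and PSMG3 had none. The RefSeq start was that of the deposited gene interval in 17 of the 45, and in 10 it lay so far inside the interval that the whole window was within the deposited gene, PSMC2 (3389 bases in) and PSMG2 (695 bases in) among them. The 250 bases before the RefSeq start were searched on both strands for TGACNNNGC, the core of the antioxidant response element that NFE2L1 and NFE2L2 are known to bind, for CCAAT, the site of NF-Y, and for CCGGAAG, a core of ETS factor sites. The upstream sequences of PSMG1, which had the smallest p of all members, of PSMD14, the member of the lid with the largest rise, and of PSMD3, a lid member that did not rise, are shown 5′ to 3′ on the strand of the gene, with every match in capitals. A match on the opposite strand reads as the reverse complement, such as ATTGG or CTTCCGG.
PSMG1, chr21:39183452-39183701, minus strand: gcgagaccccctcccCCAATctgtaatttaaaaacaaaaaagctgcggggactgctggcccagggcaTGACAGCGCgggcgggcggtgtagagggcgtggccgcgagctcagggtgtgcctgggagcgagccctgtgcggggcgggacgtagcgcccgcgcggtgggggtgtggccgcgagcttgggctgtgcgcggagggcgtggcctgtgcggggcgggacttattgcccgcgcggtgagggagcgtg
PSMD14, chr2:161308175-161308424, plus strand: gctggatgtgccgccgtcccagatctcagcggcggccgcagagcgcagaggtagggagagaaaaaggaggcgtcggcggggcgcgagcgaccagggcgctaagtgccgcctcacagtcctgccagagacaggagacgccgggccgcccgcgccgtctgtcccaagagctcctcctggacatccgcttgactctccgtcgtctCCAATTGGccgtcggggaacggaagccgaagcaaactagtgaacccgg
PSMD3, chr17:39980557-39980806, plus strand: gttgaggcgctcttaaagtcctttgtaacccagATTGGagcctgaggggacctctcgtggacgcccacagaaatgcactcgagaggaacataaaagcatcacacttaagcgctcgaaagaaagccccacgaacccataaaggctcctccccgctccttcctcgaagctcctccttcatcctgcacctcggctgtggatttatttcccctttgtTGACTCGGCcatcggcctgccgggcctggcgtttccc
In these windows PSMG1 held TGACNNNGC and CCAAT, PSMD14 held CCAAT on both strands in overlapping matches, and PSMD3 held TGACNNNGC and CCAAT.

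TGACNNNGC was found in 11 of the 45 members (24.4%) and in 11.0% of all 27305 promoters. For each motif, these promoters were not limited to protein-coding genes or to the genes tested here. The shares in members and in all promoters are thus from unlike sets. It was in 4 of 27 members called higher (14.8%) and in 7 of 14 tested members that were not (50.0%). The matches in the 4 members called higher follow, each with 10 bases on either side and the match in capitals.
PSMG1, chr21:39183616-39183644, minus strand: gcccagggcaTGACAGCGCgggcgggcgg
PSMG2, chr18:12658689-12658717, plus strand: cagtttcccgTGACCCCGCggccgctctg
PSMD12, chr17:67366724-67366752, minus strand: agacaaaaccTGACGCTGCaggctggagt
PSMD5, chr9:120843038-120843066, minus strand: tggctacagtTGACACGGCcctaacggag
For comparison, matches in members that fell or did not pass the test are shown for PSME1, PSMD3 and PSMB3.
PSME1, chr14:24136098-24136126, plus strand: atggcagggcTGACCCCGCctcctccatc
PSMD3, chr17:39980760-39980788, plus strand: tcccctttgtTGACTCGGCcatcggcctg
PSMB3, chr17:38752627-38752655, plus strand: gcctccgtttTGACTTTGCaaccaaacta
CCAAT was found in 20 of 45 members (44.4%) and 33% of all promoters, and in 13 of the 27 called higher (48.1%) and 6 of the 14 others (42.9%). The alpha subunit gene PSMA5 held it in 2 places.
PSMA5, chr1:109426488-109426512, minus strand: ctactaccagCCAATaggaagcagg
PSMA5, chr1:109426517-109426541, minus strand: gcgcgttggcCCAATcacctaggcg
CCGGAAG was in 11 of 45 members (24.4%) and 8.82% of all promoters, with 7 of the 27 called higher (25.9%) and 2 of the 14 others (14.3%). Those of PSMC6, the member called higher with the largest fold change, of the ATPase gene PSMC2 and of the assembly factor gene POMP are shown.
PSMC6, chr14:52707083-52707109, plus strand: acggggccaaCCGGAAGgggagggctc
PSMC2, chr7:103347610-103347636, plus strand: gcccaatttaCTTCCGGtggggaaggg
POMP, chr13:28659076-28659102, plus strand: gacggacgcaCTTCCGGcggatgtggg
A match is a description of the letters, and binding at these places was not measured.

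The alpha ring forms the gate of the core. All 7 alpha genes PSMA1 to PSMA7 were higher in every PLOD3 siRNA sample than in any si NC sample, and 6 of them passed the test. Over all genes tested these shares were 24.6% and 16.2%. PSMA4 (ENSG00000041357, chromosome 15, 78540405 to 78549186, plus strand, GRCh38) stood at 17.8, 15.8 and 17.6 FPKM with si NC, against 32.9, 22.8 and 29.9 with PLOD3 siRNA. It rose by 0.74 on the log2 scale (SE 0.121, edgeR adjusted p = 0.00657), with PLOD3 siRNA replicate 2 well below the other PLOD3 siRNA samples. PSMA5 was at 21.4, 20.1 and 20.9 FPKM with si NC, against 32.0, 38.1 and 31.2 with PLOD3 siRNA, a log2 rise of 0.71 (SE 0.109, edgeR adjusted p = 0.00554). Here replicate 2 was the highest sample, the reverse of PSMA4. PSMA3 rose by 0.65 (SE 0.0920), from 23.1, 20.1 and 23.7 FPKM to 35.8, 36.2 and 32.5. PSMA2 rose by 0.63 (SE 0.134), from 19.6, 17 and 18.7 FPKM to 29.1, 31.9 and 23.6, with a wider spread among the PLOD3 siRNA samples than PSMA3.

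The other called alpha genes were PSMA7 (log2 0.53), the most abundant alpha gene at 102 ± 2.2 and 147 ± 12.9 FPKM, and PSMA6 (log2 0.50). PSMA1 had a log2 difference of 0.43, which missed the threshold (edgeR adjusted p = 0.0763). Its values were 34.4, 31.3 and 32.2 FPKM with si NC, against 37.6, 53.5 and 39.6 with PLOD3 siRNA, with replicate 2 far above the others. PSMA2 and PSMA6 overlap readthrough genes on the same strand by 15314 and 38842 bases, listed at a mean of 1.25 and 1.46 FPKM, and some reads of one could have been assigned to the other. With the GC correction PSMA2 and PSMA6 were no longer called (adjusted p = 0.0596 and 0.0579 in edgeR).

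The beta ring holds the cutting sites. All 7 constitutive beta genes PSMB1 to PSMB7 had no overlap between the groups, with PLOD3 siRNA higher (24.6% of all genes tested). Of these, 5 passed the test as higher (16.2% of all genes tested), at log2 values of 0.34 to 0.54. PSMB7, the subunit with trypsin-like activity, was at 96.3, 96.1 and 95.1 FPKM with si NC, against 137, 155 and 123 with PLOD3 siRNA. The si NC samples lay close together and the PLOD3 siRNA samples spread more widely, and PSMB7 rose by 0.54 (SE 0.110, edgeR adjusted p = 0.0129). PSMB6, the subunit with caspase-like activity, stood at 62.2, 71.6 and 64.3 FPKM with si NC, against 85.0, 82.7 and 81.7 with PLOD3 siRNA, a rise of 0.34 (SE 0.0854, edgeR adjusted p = 0.0256). PSMB5, the subunit with chymotrypsin-like activity and the main target of proteasome inhibitor drugs, was at 82.0, 83.0 and 110 FPKM with si NC, against 122, 128 and 110 with PLOD3 siRNA. Its si NC replicate 3 was within rounding of PLOD3 siRNA replicate 3, and the log2 difference of 0.39 missed the threshold (edgeR adjusted p = 0.0728), while it passed without si NC replicate 3 (log2 0.56, adjusted p = 0.0269).

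PSMB2, PSMB1 and PSMB4 are structural subunits without a cutting site. PSMB2 rose by 0.46, from 45.3, 50.9 and 48.0 FPKM to 66.6, 68.7 and 61.9. PSMB1 rose by 0.44, from 84.0, 78.8 and 84.7 FPKM to 112, 122 and 99.7. PSMB4 rose by 0.36, from 89.7, 90.1 and 92.4 FPKM to 115, 130 and 103. The median of the constitutive beta ring was 0.44, the value of PSMB1 itself, with PSMB2 just above it and PSMB4 below it. With the GC correction PSMB2 was no longer called (edgeR adjusted p = 0.0694). PSMB3 stood at 106, 135 and 121 FPKM with si NC, against 183, 229 and 141 with PLOD3 siRNA, so that the lowest PLOD3 siRNA sample was close to the highest si NC sample, and its log2 difference of 0.62 did not pass (SE 0.206, edgeR adjusted p = 0.0558). PSMB3 was called higher without PLOD3 siRNA replicate 3 (0.80, adjusted p = 0.0233), with the GC correction (0.74, adjusted p = 0.0404) and with DESeq2 (0.63, adjusted p = 0.00907). The call of PSMB4 was made in 1 of the 6 fits with 1 sample less, and those of PSMB1 and PSMB6 in 2 of the 6.

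**Figure D3:**
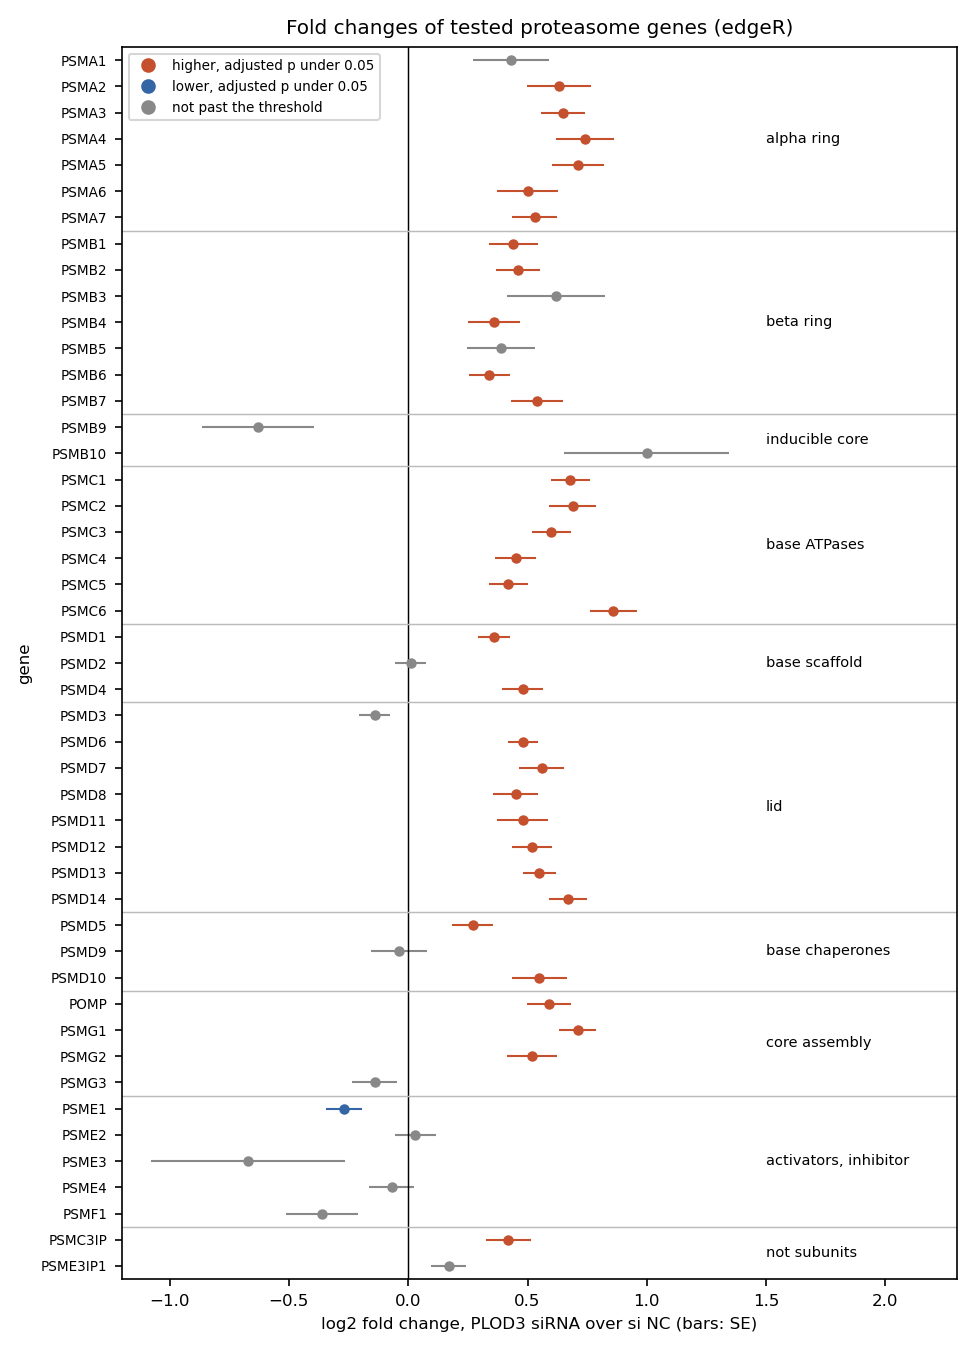
Log2 fold changes (PLOD3 siRNA over si NC, edgeR) of the 47 tested proteasome genes, with bars of 1 SE, grouped by role. Red points passed the test as higher (32 genes), the blue point as lower (PSME1), and grey points did not pass.

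The inducible catalytic subunits PSMB8, PSMB9 and PSMB10 replace PSMB5, PSMB6 and PSMB7 in the immunoproteasome, which interferon is known to induce and which cuts peptides for display on MHC class I. All were scarce here: in si NC the mean of PSMB8 was 0.203% of that of PSMB5, PSMB9 1.85% of PSMB6 and PSMB10 2.71% of PSMB7. PSMB9 was at 1.17, 1.14 and 1.36 FPKM with si NC, against 0.715, 1.03 and 0.618 with PLOD3 siRNA. Its groups did not overlap, and the log2 difference of -0.63 missed the threshold (SE 0.235, edgeR adjusted p = 0.0800), while it passed without PLOD3 siRNA replicate 2 (-0.90, adjusted p = 0.0228) and with the GC and length correction (-0.75, adjusted p = 0.0381). The deposited interval of PSMB9 lies across the whole of TAP1 on the opposite strand, an overlap of 8770 bases. The RefSeq start of PSMB9, at 32854192, lies past the end of TAP1 at 32853978. TAP1, the peptide transporter, fell from 10.2 ± 0.318 to 6.71 ± 0.122 FPKM (SD, n = 3 each, log2 -0.60). With no stated strand setting, how reads within the shared bases were assigned is uncertain.

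PSMB10 stood at 1.83, 3.71 and 2.26 FPKM with si NC, against 5.34, 6.65 and 3.64 with PLOD3 siRNA. The groups overlapped, as si NC replicate 2 was above PLOD3 siRNA replicate 3, and the log2 difference of 1.00 did not pass (SE 0.346, edgeR adjusted p = 0.0637). It passed without si NC replicate 2 (log2 1.37, adjusted p = 0.0351) and after the GC correction (1.29, adjusted p = 0.0322). It also passed with DESeq2 (1.01, adjusted p = 0.00896), with limma on FPKM or TPM, with the replicate block, with the GC and length correction and without PLOD3 siRNA replicate 3. PSMB10 did not pass without si NC replicate 1 or 3, without PLOD3 siRNA replicate 1 or 2, or without a filter. PSMB8, below the filter, was listed at 0.243, 0.159 and 0.156 FPKM with si NC, against 0.0894, 0.0628 and 0.0895 with PLOD3 siRNA, from 15 to 58 estimated counts. In the fit without a filter its log2 difference was -1.13 (SE 0.384, edgeR adjusted p = 0.109). PSMA8 and PSMB11, the core subunits of testis and thymus, had 0 counts in every sample and at most 4 counts in 1 sample.

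As a ratio within each sample, log2 of PSMB9 over PSMB6 was -5.62, -5.85 and -5.47 with si NC, against -6.71, -6.20 and -6.83 with PLOD3 siRNA, with 0.1 added to each FPKM. The difference of -0.94 gave p = 0.1 in the two-sided exact permutation test, the smallest that 3 against 3 samples allow, and 0.15 after adjustment over the 3 ratios. For PSMB8 over PSMB5 the difference was -1.05 with the same exact p, and for PSMB10 over PSMB7 it was 0.47 with an exact permutation p of 0.2. The groups did not overlap for the PSMB9 and PSMB8 ratios and overlapped for PSMB10. With 1 added in place of 0.1, the differences were -0.65 for PSMB9, -0.53 for PSMB8 and 0.27 for PSMB10 (exact permutation p = 0.1, 0.1 and 0.3). The FPKM of PSMB8 was of the size of the 0.1 added, so the size of its difference depends on that choice.

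**Figure D4:**
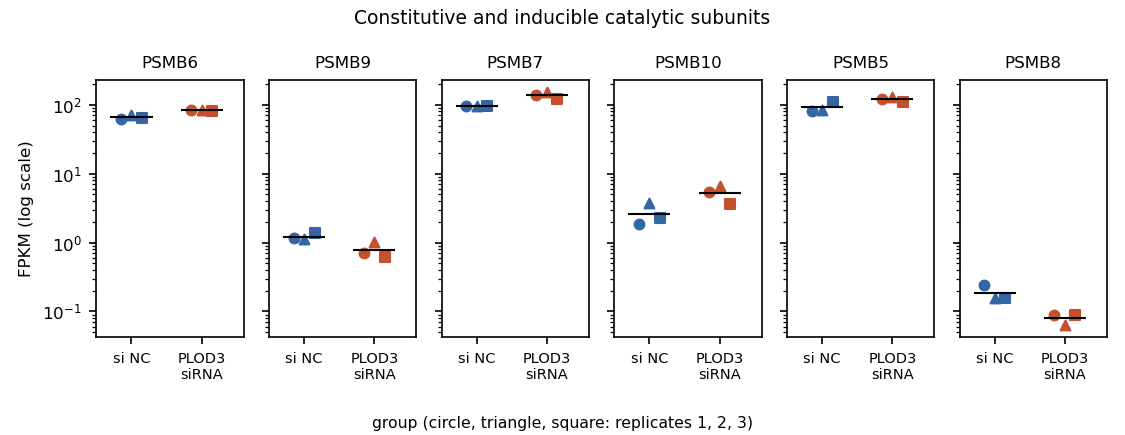
FPKM (log axis) of the constitutive catalytic subunits PSMB6, PSMB7 and PSMB5, each followed by its inducible counterpart PSMB9, PSMB10 or PSMB8, with points for replicates and a line at the mean. PSMB8 and PSMB9 are lower and the constitutive subunits higher in PLOD3 siRNA.

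The ATPase ring of the cap unfolds substrates. All 6 ATPase genes rose without overlap, at log2 values of 0.42 to 0.86, where 16.2% of all genes tested were called higher and 24.6% were higher without overlap. PSMC6 (ENSG00000100519, chromosome 14, 52707178 to 52727995, plus strand, GRCh38) stood at 6.26, 5.48 and 7.04 FPKM with si NC, against 11.1, 11.3 and 11.7 with PLOD3 siRNA. Its rise of 0.86 (SE 0.0999, edgeR adjusted p = 0.00292) was the largest among the called members, and 0.56 after the GC correction (adjusted p = 0.00745). PSMC1 was at 22.2, 22 and 22.8 FPKM with si NC, against 35.9, 37.3 and 33.2 with PLOD3 siRNA, with a narrow spread in each group and a rise of 0.68 (SE 0.0800). PSMC2 rose by 0.69 (SE 0.0989), from 29.8, 26.4 and 28.6 FPKM to 46.0, 49.0 and 40.8, and PSMC3, the most abundant ATPase gene, by 0.60 (SE 0.0826), from 74.3 ± 3.36 to 112 ± 5.83 FPKM (SD, n = 3 each).

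PSMC4 rose by 0.45. PSMC5 rose by 0.42, from 34.3, 32.7 and 32.9 FPKM to 48.4, 44.6 and 40.5. PSMC5 overlaps FTSJ3 on the opposite strand by 2861 bases, and FTSJ3, also called higher, was at 28.3 ± 0.937 and 32.9 ± 2.93 FPKM (SD, n = 3 each). For PSMC1, the pseudogene PSMC1P1 on chromosome 3 was listed at 3.10 ± 1.39 and 4.89 ± 0.101 FPKM (SD, n = 3 each), and how reads were split between such copies is uncertain.

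The base also holds scaffold subunits and receptors for ubiquitin, and here the genes differed. PSMD4, a ubiquitin receptor, was at 52.1, 56.8 and 53.9 FPKM with si NC, against 74.3, 79.3 and 72.2 with PLOD3 siRNA, and rose by 0.48 (SE 0.0856, edgeR adjusted p = 0.00853). PSMD1, a large scaffold subunit, rose by 0.36 (SE 0.0672), from 36.9, 32.5 and 35.5 FPKM to 47.2, 43.6 and 43.6. PSMD2, the other large scaffold and a docking site for shuttle proteins, was at 77.7, 77.6 and 75.1 FPKM with si NC, against 78.2, 71.1 and 81.5 with PLOD3 siRNA. Its groups overlapped, with a log2 difference of 0.01 (SE 0.0643, edgeR adjusted p = 0.952). With the correction for GC content and length it was called higher at 0.22 (adjusted p = 0.0150).

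The lid removes ubiquitin chains before degradation. Of its 8 PSMD genes, 7 rose without overlap, at log2 values of 0.45 to 0.67 (over all genes tested, 16.2% called higher and 24.6% higher without overlap). PSMD14, the deubiquitinase of the lid (ENSG00000115233, chromosome 2, 161308425 to 161411717, plus strand, GRCh38), stood at 20.8, 17.9 and 17.9 FPKM with si NC, against 29.8, 30.6 and 28.9 with PLOD3 siRNA, a rise of 0.67 (SE 0.0791, edgeR adjusted p = 0.0031). PSMD7, its partner in a dimer, rose by 0.56 (SE 0.0945), from 36.9 ± 1.74 to 54.0 ± 4.79 FPKM, and PSMD13 by 0.55 (SE 0.0704), from 26.3 ± 1.18 to 38.2 ± 2.14 (SD, n = 3 each). The scaffold subunits PSMD12, PSMD11, PSMD6 and PSMD8 rose by 0.52, 0.48, 0.48 and 0.45.

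PSMD3, also a scaffold subunit of the lid, went the other way. It stood at 43.8, 45.9 and 42.6 FPKM with si NC, against 39.6, 39.0 and 41.1 with PLOD3 siRNA, so that all 3 PLOD3 siRNA samples were lower. The log2 difference of -0.14 missed the threshold (SE 0.0644, edgeR adjusted p = 0.135), and it was 0.10 after the GC correction (adjusted p = 0.155). It was called lower when only genes with a mean of at least 5 FPKM were kept (-0.18, adjusted p = 0.0497).

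Chaperones that help the base to assemble were mixed. PSMD10, also known as gankyrin, rose by 0.55 (SE 0.117), from 15.7 ± 2.06 to 23.0 ± 2.34 FPKM (SD, n = 3 each), and was no longer called with the GC correction (log2 0.34, edgeR adjusted p = 0.105). PSMD5 stood at 12.2, 10.4 and 11.3 FPKM with si NC, against 15, 12.8 and 13.1 with PLOD3 siRNA, and was called higher at 0.27 (SE 0.0848, edgeR adjusted p = 0.0461), a call made in 0 of the 6 fits with 1 sample less and not made with the GC correction (0.07, adjusted p = 0.488). PSMD9 was at 3.09 ± 0.302 and 3.01 ± 0.293 FPKM (SD, n = 3 each) with overlapping groups, a log2 difference of -0.04 (SE 0.118).

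Factors that assemble the core were mostly higher. POMP, which guides the assembly of the beta ring, stood at 52.0, 46.4 and 49.2 FPKM with si NC, against 73.4, 79.0 and 68.1 with PLOD3 siRNA. It rose by 0.59 (SE 0.0908, edgeR adjusted p = 0.00564), and with the GC correction it was no longer called (0.24, adjusted p = 0.113). Its transcript had the lowest GC content of the tested members, 34.6%. PSMG1 and PSMG2 form a dimer that builds the alpha ring. PSMG1 (ENSG00000183527, chromosome 21, 39174769 to 39183451, minus strand, GRCh38) was at 16.2, 16.3 and 17 FPKM with si NC, against 27.6, 27.6 and 25.7 with PLOD3 siRNA, a rise of 0.71 (SE 0.0762, edgeR adjusted p = 0.00263) with narrow spread in each group. PSMG2 was at 13.7, 13.0 and 13.3 FPKM with si NC, against 18.5, 21.3 and 17.4 with PLOD3 siRNA, a rise of 0.52 (SE 0.105, edgeR adjusted p = 0.0121).

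PSMG3 and PSMG4 form a second dimer with the same task. PSMG3 was at 17.2, 15.7 and 15.4 FPKM with si NC, against 14.6, 15.4 and 13.6 with PLOD3 siRNA, with the highest PLOD3 siRNA sample just below the lowest si NC sample. The log2 difference of -0.14 did not pass (SE 0.0941, edgeR adjusted p = 0.277), and it was 0.10 after the GC correction. PSMG4, just under the filter at a mean of 0.870 ± 0.0480 and 0.994 ± 0.0267 FPKM (SD, n = 3 each), had a log2 difference of 0.21 in the fit without a filter (SE 0.117, edgeR adjusted p = 0.343). Its gene body overlaps SLC22A23 on the opposite strand by 23023 bases.

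Activators and an inhibitor can dock on the core in place of the cap. Of their 5 genes, 1 was called lower, 0 were called higher and 4 did not pass, with a median log2 value of -0.27. Over all genes tested 19.3% were called lower and 16.2% higher, and 5 genes are too few to set apart from these shares. PSME1, which joins PSME2 in the activator that interferon induces, stood at 54.8, 50.6 and 51.7 FPKM with si NC, against 43.1, 45.0 and 41.1 with PLOD3 siRNA. It fell by 0.27 on the log2 scale (SE 0.0757, edgeR adjusted p = 0.0327). With the GC correction it was no longer called (-0.17, adjusted p = 0.122), and it was called in 1 of the 6 fits with 1 sample less. Its partner PSME2 was at 16.9, 17.9 and 18.6 FPKM with si NC, against 16.9, 17.7 and 19.8 with PLOD3 siRNA, overlapping groups with a log2 difference of 0.03 (SE 0.0873).

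PSME3, the nuclear activator, split the PLOD3 siRNA samples. It was at 32.0, 31.4 and 31.4 FPKM with si NC, against 13.7, 11.0 and 35.2 with PLOD3 siRNA replicates 1 to 3, so that replicate 3 was above all si NC samples and replicates 1 and 2 were far below them. The log2 difference of -0.67 did not pass (SE 0.407, edgeR adjusted p = 0.239), and without PLOD3 siRNA replicate 3 it was -1.34 (adjusted p = 0.00649). The deposited interval of PSME3 overlaps BECN1 on the opposite strand by 8948 bases. The RefSeq start of PSME3, at 42833397, lies past the end of BECN1 at 42833332. BECN1 was at 8.30 to 8.79 FPKM in si NC and 9.23 to 10.6 in PLOD3 siRNA. PSME4, an activator linked to histone breakdown, was at 8.79, 9.33 and 9.97 FPKM with si NC, against 9.91, 8.23 and 8.58 with PLOD3 siRNA, a log2 difference of -0.07 (SE 0.0925). The inhibitor PSMF1 was at 9.90, 10.7 and 9.79 FPKM with si NC, against 8.44, 8.78 and 6.23 with PLOD3 siRNA, all lower, and its log2 difference of -0.36 did not pass (SE 0.151, edgeR adjusted p = 0.105).

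**Figure D5:**
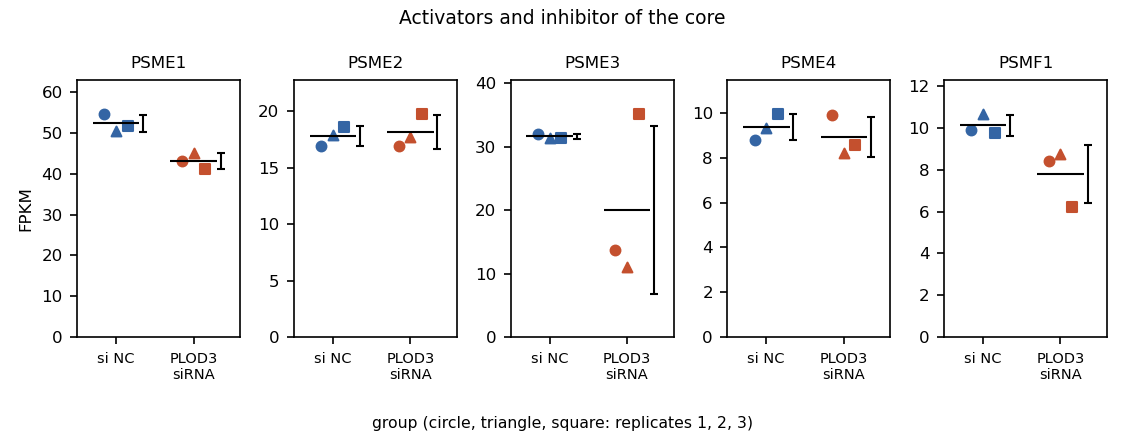
FPKM of the activators PSME1, PSME2, PSME3 and PSME4 and the inhibitor PSMF1 in each sample, with lines at the mean and bars of 1 SD (n = 3). PSME3 stands at 13.7 and 11.0 FPKM in PLOD3 siRNA replicates 1 and 2 and at 35.2 in replicate 3.

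Of the genes that only share the symbol pattern, PSMC3IP rose by 0.42 (SE 0.0932), from 5.29, 5.38 and 5.04 FPKM to 6.70, 7.29 and 7.01, and overlaps MLX on the opposite strand by 930 bases. PSME3IP1 had a log2 difference of 0.17, which missed the threshold (edgeR adjusted p = 0.113).

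Other proteasome genes were counted in 18 helpers outside the PSM symbols, such as SEM1 and ADRM1 of the cap, deubiquitinases and shuttle proteins. Of these, 7 rose and 2 fell, with a median log2 fold change of 0.20, where 16.2% of all genes tested were called higher and 19.3% lower. ECPAS, which binds whole proteasomes, rose by 0.49 (SE 0.0791, edgeR adjusted p = 0.00646) from 8.92, 7.53 and 8.57 FPKM to 12.3, 10.6 and 12.1. PAAF1, a base assembly chaperone, was at 0.779, 0.896 and 0.815 FPKM with si NC, against 1.55, 1.63 and 1.25 with PLOD3 siRNA, and rose by 0.84. The lid subunit SEM1 rose by 0.40 and the ubiquitin receptor ADRM1 had a log2 difference of 0.24, which missed the threshold (edgeR adjusted p = 0.0747). RAD23B, a shuttle protein, rose by 0.34, from 65.3, 62.1 and 61.9 FPKM to 81.3, 75.6 and 81.3. Its groups did not overlap, and with the GC correction it was no longer called (log2 0.16, edgeR adjusted p = 0.0907). UBQLN4, also a shuttle protein, was called lower (-0.27) and kept its call in 4 of 18 alternatives.

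Of 19 regulators of proteasome transcription, 3 were called higher and 6 lower, with a median of -0.21. The share called higher was near the 16.2% over all genes, and 19.3% of all genes were called lower. NFE2L1, the factor known to raise proteasome genes when the proteasome is inhibited, was at 36.7, 37.3 and 38.9 FPKM with si NC, against 21.0, 30.6 and 41.1 with PLOD3 siRNA. The groups overlapped, and the log2 difference of -0.28 did not pass (edgeR adjusted p = 0.363). NFE2L2 stood at 5.81, 17.6 and 19.6 FPKM with si NC, against 24.1, 23.0 and 23.8 with PLOD3 siRNA, with si NC replicate 1 far below the rest and a log2 difference of 0.72, which missed the threshold (edgeR adjusted p = 0.223). Of their small MAF partners, MAFG fell by 1.40 and MAFK by 1.36 on the log2 scale, with wide si NC spread (MAFK at 6.04, 2.28 and 6.48 FPKM). MAFF had a log2 difference of -0.30, which missed the threshold (edgeR adjusted p = 0.051). STAT3, a transcription factor, fell by 0.78, from 8.91, 9.61 and 8.94 FPKM to 5.6, 4.67 and 5.72.

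NGLY1, the glycan-removing enzyme that activates NFE2L1, rose by 0.42, and DDI2, the protease that cuts it and also 1 of the 18 helpers, had a log2 difference of -0.34, which missed the threshold (edgeR adjusted p = 0.0672). Of the segregase that draws NFE2L1 from the membrane, VCP and its adaptor NPLOC4 fell by 0.21 and 0.31 and the adaptor UFD1 rose by 0.37. The ubiquitin ligase SYVN1 fell by 0.57 and NFYB, a subunit of NF-Y, was called higher at 0.29. With the GC correction NGLY1 was no longer called (edgeR adjusted p = 0.159) and NFYB stood at -0.04, and NFYB was called in 0 of the 6 fits with 1 sample less.

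Among 6 ubiquitin and activating enzyme genes, 2 rose and 1 fell, too few to set apart from the 16.2% and 19.3% over all genes. UBA1, the main ubiquitin-activating enzyme, fell by 0.42, from 67.7, 72.8 and 65.0 FPKM to 50.7, 48.6 and 53.9, and UBA6, the alternative enzyme, rose by 0.53, from 5.72, 4.41 and 5.23 to 7.42, 7.13 and 7.46. RPS27A, a ubiquitin and ribosomal protein fusion, was called higher at 0.33, a call made in 1 of the 6 fits with 1 sample less. UBB stood at 363, 412 and 341 FPKM with si NC, against 308, 437 and 362 with PLOD3 siRNA, overlapping groups. UBB and RPS27A have near-identical copies between which reads may be split.

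Of the 15 tested genes of MHC class I loading and its regulators, which use peptides that the proteasome makes, 1 rose and 3 fell, with a median of -0.20. The share called lower was near the 19.3% over all genes, and 16.2% of all genes were called higher. TAPBP, which loads peptides onto MHC class I, fell by 1.02, from 11.9, 12.7 and 13.1 FPKM to 5.82, 6.09 and 6.55, and TAP1 fell by 0.60. CANX, a general chaperone of the endoplasmic reticulum, rose by 0.40. With the GC correction CANX was no longer called (adjusted p = 0.0823 in edgeR). B2M, the light chain of MHC class I, had a log2 difference of 0.27, which missed the threshold (edgeR adjusted p = 0.108).

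Position, transcript length and GC content were not used to choose the members. They lay on 18 chromosomes, with 8 each on chromosomes 14 and 17, and PSME1 and PSME2 are near each other on chromosome 14. The median transcript length was 1581 bases for the tested members and 3019 for all genes tested, and the median GC content 48.7% and 49.1%. The 32 members called higher had a median GC content of 46.2% and the 15 others 53.2%. Across the 47 members, Pearson's r between the log2 fold change and GC content was -0.326, and 0.131 with the GC-corrected fold changes, given as a description over genes that share the same 6 libraries. After the GC correction 28 members were called higher and 0 lower, with a median of 0.43, where 13.0% of all genes tested were called higher.

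Of the 32 calls of a higher level, 19 were kept in all 18 alternatives. These were PSMA3, PSMA4, PSMA5, PSMA7, PSMB7, all 6 ATPases PSMC1 to PSMC6, PSMD4, PSMD6, PSMD7, PSMD8, PSMD13, PSMD14, PSMG1 and PSMG2. All 32 members kept a log2 fold change above 0 in each alternative.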

How the data were processed

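The members and the gene lists were chosen with earlier results of these data known. FPKM and estimated counts, whole numbers that are not normalized, were deposited in 1 table by the authors, per the file headers, with 0.0001 FPKM for a gene without reads (read here as 0). Of tools, cutadapt 1.9, HISAT2 2.0.4 and StringTie 1.3.4d are listed, per the submitters' processing notes; how reads were counted, whether by strand and on which genome build was not given in the sources used here. All 51 members overlapped their position in GENCODE release 29, so coordinates were read as GRCh38. Low counts piled up at 4 (a mean of 1490 genes per sample, against 558 at 3 and 312 at 5), so a count may overstate read pairs.

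The 12000 genes whose FPKM averaged at least 1 were compared with edgeR 4.0.16 in R 4.3.3, using TMM scaling and the quasi-likelihood test on all 6 samples without a covariate, two-sided, Benjamini-Hochberg adjusted over all genes (threshold 0.05). Fold changes are log2 of PLOD3 siRNA over si NC, and levels are deposited FPKM. Depth limits the precision most for PSMB8, PSMB9, PSMB10 and PSMB11, whose lowest counts were 15, 134, 201 and 0. Alternatives used DESeq2 1.42.0, limma 3.58.1 on log2(FPKM + 1) and log2(FPKM + 0.1), DESeq2 size factors, other filters, the counts divided by 4, a replicate block, each sample left out, and loess corrections (span 0.5) for GC content or, chosen after seeing the data, GC content and length. Rescaling of FPKM to TPM, tested with limma on log2(TPM + 1), was also chosen after seeing the data. Ratios were compared by exact permutation (scipy 1.17.1). The edgeR step was tested on simulated data. All members are named. Values in every sample are given for the catalytic subunits, the core assembly factors other than PSMG4, and the activators and inhibitor. They are also given for the called members with the 4 highest and 4 lowest log2 fold changes in core and cap each. List genes named are the 4 with the smallest p in a list and all called ones where a list had 5 or fewer in a direction. Some list genes are counted but not reported here. PSMA1, PSMB3, PSMD2, PSMD3, PSMD4, SEM1, ADRM1, DDI2, MAFF, MAFG, MAFK, VCP, SYVN1, NFE2L1, NFE2L2, B2M and UBB were given values after these were seen.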

Additional observations from a re-analysis of the deposited data

How the results depend on the processing

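The count of members called higher stayed within 1.5 times the reported 32 in all 18 alternatives. It was 24 for the replicate block with GC correction, where 8.77% of all genes tested were called higher, and 36 for DESeq2, where 19.6% were. The count of members called lower, 1, was 0 with no filter, with the GC correction, with the replicate block, with both of these and with TPM, and 2 with DESeq2, a mean FPKM of at least 5 and the GC and length correction. Leaving out each sample gave 26 to 33 higher and 0 to 2 lower, 7 to 13 in the core, and medians of 0.40 to 0.51. The median of 0.29 under the GC and length correction was the only one to move by more than the spread between samples. Over all genes, 1192 were higher and 1354 lower at a mean FPKM of at least 5, where fewer genes were tested, 1052 and 1210 with the replicate block and GC correction, and 1083 to 1651 and 1509 to 2011 with a sample left out. Lower genes numbered 1501 with the GC and length correction and 1461 with TPM. The cause was not tested.

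Same-numbered samples did not deviate together over genes (r = 0.049, -0.011 and -0.023 for the 3 pairs). This cannot tell whether they were grown or handled together, which the labels leave unsaid. The replicate block gave 30 members higher and 0 lower, 1471 genes higher and 1834 lower.

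Signs changed only in genes near 0 or weakly called. With a sample left out, PSMD2 ranged from -0.02 to 0.04 (-0.0 without si NC replicate 1), PSME2 from -0.02 to 0.09 and PSMD9 from -0.10 to 0.06 (0.03 without PLOD3 siRNA replicate 1). At a mean FPKM of at least 5, PSMD2 stood at -0.04 and PSME2 at -0.01. PSMD3 stood at 0.10 with the GC correction, with or without the block, and at 0.08 with GC and length. PSMD9 stood at 0.02, 0.03 and 0.03 there, and at 0.06 with TPM. PSMG3 stood at 0.10 with the GC correction, with or without the block, PSME4 at 0.03 with TPM, UBQLN4 at 0.01 with GC and length, and NFYB at -0.04, -0.03 and -0.08 in the corrected fits.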
